A study of Mus musculus with 24 samples.

Results

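The nuclear genes that encode the subunits of the mitochondrial respiratory chain were followed in inguinal white adipose tissue, the subcutaneous fat of the groin, of 24 mice. They comprised 41 genes chosen by name from textbook knowledge: 11 of complex I, 4 of complex II, 6 of complex III with cytochrome c (7 genes together), 11 of complex IV and 8 of complex V, with Ndufa4 placed in complex IV. Each was found by its symbol in the deposited table, and 41 of 41 passed the filter on low counts, among 15939 of 17541 genes. The lowest count of any of them in any library was 17.

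The mice were C57BL/6J wild-type animals on a high-fat diet, as the series title gives it. The 7 Young CTRL mice and the 6 Young BAM15 mice were 16 weeks old, and the 6 Aged CTRL mice and the 5 Aged BAM15 mice were 92 weeks old. BAM15 is a mitochondrial uncoupler, a compound that carries protons across the inner membrane, and its dose and duration are not stated in the labels used here. The series names Young CTRL as its reference. Each library was made from the RNA of 1 mouse with a kit that reads the 3' end of transcripts, so the levels count tags per gene and not the length of a transcript. CPM is the count of a gene scaled to the same total (over the genes kept, after TMM scaling) in every library. All comparisons are between mice, so a tissue sample with fewer cells of a type and one with less RNA per cell cannot be told apart.

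The respiratory chain moves electrons from NADH through complex I, and from succinate through complex II, to coenzyme Q, then through complex III and cytochrome c to complex IV, where oxygen is reduced. The protons pumped on the way drive complex V, the ATP synthase, and an uncoupler lets them return without making ATP. Most subunits are encoded in the nucleus and imported, and complexes I, III, IV and V each also include subunits read from mitochondrial DNA. NRF1, GABP (an ETS factor) and YY1 are transcription factors known to bind promoters of such nuclear genes, and the coactivator PGC-1alpha (Ppargc1a) works with them. White fat has few mitochondria beside brown fat, where Ucp1 dissipates the same gradient.

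The promoters of 5 subunits, 1 for each complex, are shown because the 41 genes are known as a jointly regulated group. How the subunits varied between these mice is described further down. Each promoter is the RefSeq stretch of 300 bases around the start of transcription on GRCm38.p6, 5' to 3', and 30 of the 41 genes had an entry. All 5 hold at least 1 of the matches marked here. Only part of the 30 genes do, so the 5 are examples and need not be typical of their complex. Capitals mark exact matches, on either strand, to the letters of NRF1 (GCGCA, then any base, then GCGC), to CCGGAAG of ETS factors such as GABP, or to AAGATGGC of YY1; no 2 of the marked matches overlap. Ndufb8 (complex I) lies at chr19:44555393-44555692, minus strand, Sdha (complex II) at chr13:74350191-74350490, minus strand, Uqcrc1 (complex III) at chr9:108936398-108936697, plus strand, Cox6a1 (complex IV) at chr5:115348909-115349208, minus strand, and Atp5g3 (complex V) at chr2:73911277-73911576, minus strand.
Ndufb8: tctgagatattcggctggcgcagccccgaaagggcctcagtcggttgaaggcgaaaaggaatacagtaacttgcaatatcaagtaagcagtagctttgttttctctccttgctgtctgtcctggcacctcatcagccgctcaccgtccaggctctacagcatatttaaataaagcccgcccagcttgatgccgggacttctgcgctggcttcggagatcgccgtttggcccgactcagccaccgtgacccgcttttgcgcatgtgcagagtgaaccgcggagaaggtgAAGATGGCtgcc
Sdha: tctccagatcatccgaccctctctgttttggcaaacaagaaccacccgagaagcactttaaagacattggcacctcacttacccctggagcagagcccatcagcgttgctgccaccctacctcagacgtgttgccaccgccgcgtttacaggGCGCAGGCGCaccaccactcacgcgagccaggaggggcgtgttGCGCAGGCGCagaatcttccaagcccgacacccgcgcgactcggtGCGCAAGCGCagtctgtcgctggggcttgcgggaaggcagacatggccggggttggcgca
Uqcrc1: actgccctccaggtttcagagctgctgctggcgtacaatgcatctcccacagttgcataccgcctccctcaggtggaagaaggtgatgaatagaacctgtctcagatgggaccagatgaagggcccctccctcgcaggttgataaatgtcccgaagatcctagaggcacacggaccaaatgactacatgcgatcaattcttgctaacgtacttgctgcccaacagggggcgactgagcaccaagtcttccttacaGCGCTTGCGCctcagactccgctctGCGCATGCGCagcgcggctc
Cox6a1: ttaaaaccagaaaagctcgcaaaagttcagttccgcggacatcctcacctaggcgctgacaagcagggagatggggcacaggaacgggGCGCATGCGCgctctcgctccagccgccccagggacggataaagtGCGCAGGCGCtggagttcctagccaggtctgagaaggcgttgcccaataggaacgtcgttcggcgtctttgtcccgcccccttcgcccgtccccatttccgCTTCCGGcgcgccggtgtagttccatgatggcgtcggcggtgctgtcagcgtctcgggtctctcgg
Atp5g3: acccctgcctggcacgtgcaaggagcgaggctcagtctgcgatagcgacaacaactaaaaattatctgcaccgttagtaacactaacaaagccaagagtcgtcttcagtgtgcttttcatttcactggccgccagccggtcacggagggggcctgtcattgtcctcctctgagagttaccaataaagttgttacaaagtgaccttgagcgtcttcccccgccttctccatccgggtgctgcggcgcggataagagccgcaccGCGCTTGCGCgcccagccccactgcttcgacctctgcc
Sdha held 3 matches to the NRF1 letters, Uqcrc1 and Cox6a1 held 2 each, Atp5g3 held 1, and Ndufb8 held 1 match to the YY1 letters. Cox6a1 also held 1 match to the ETS letters on the opposite strand. Over the 30 genes with an entry, 7 (23.3%) had an NRF1 match, against 4.60% of all 32851 promoters in the table and 10.5% of the 11427 genes kept by the filter that have an entry. The first of these shares is per promoter, while the second, like that of the 30, is per gene, with a match in any of its promoters. The ETS letters were in 8 of 30 (26.7%, against 8.86% and 18.3%) and the YY1 letters in 3 of 30 (against 2.75% and 4.83%). The TATA box letters TATAAA were in 0 of 30, against 13.6% of all promoters and 9.50% of the genes kept. A match is a description of the letters and not of a bound factor.

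Library depth ran from 8624158 to 21865353 counts. A group of 4 libraries stood apart in mt-Rnr2, a ribosomal RNA of mitochondria: its share of counts was 0.121% to 0.257% in mouse 4 of Young CTRL, mouse 2 of Aged CTRL and mice 2 and 5 of Aged BAM15, and 0.722% or more in all remaining mice. The same 4 libraries held up to 21.4% of counts from the mitochondrial genome, and no other library held more than 9.27%. Their preparation is not described in the sources used here, and results are given with and without them. Muscle RNA was highest in 4 other libraries (Young CTRL 7, Young BAM15 3, Aged CTRL 1 and Aged BAM15 1), with 772 to 5683 CPM of the muscle creatine kinase Ckm against at most 191 CPM elsewhere, and keratin Krt14 of skin was at 840.0 CPM in Young CTRL 1 and above all but that library in Young CTRL 7, with at most 3.28 CPM elsewhere. The sum of 12 muscle markers was 12149 CPM or more in those 4, and also reached 8746 CPM in Aged BAM15 2 and 3757 CPM in Aged CTRL 5, against at most 1068 CPM in the other 18. The labelled tissue held its defining markers: the 8 adipocyte transcripts examined were above 0 in every library.

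Summed over the 41 genes, the subunits made up 10604, 13427 and 20099 CPM in Young CTRL (lowest, median and highest), 7848, 11004 and 14287 in Young BAM15, 9938, 11257 and 14226 in Aged CTRL, and 11061, 16992, 8604, 8379 and 13844 in Aged BAM15 mice 1 to 5. The highest sums in Young CTRL and Aged BAM15 came from libraries with low mt-Rnr2, and the 4 groups overlapped. Without those 4 libraries the range was 10604 to 14321 CPM in 6 Young CTRL mice and 7848 to 14287 CPM in 6 Young BAM15 mice. It was 9938 to 14226 CPM in 5 Aged CTRL mice and 8379 to 11061 CPM in 3 Aged BAM15 mice, so the groups still overlapped.

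**Figure D1:**
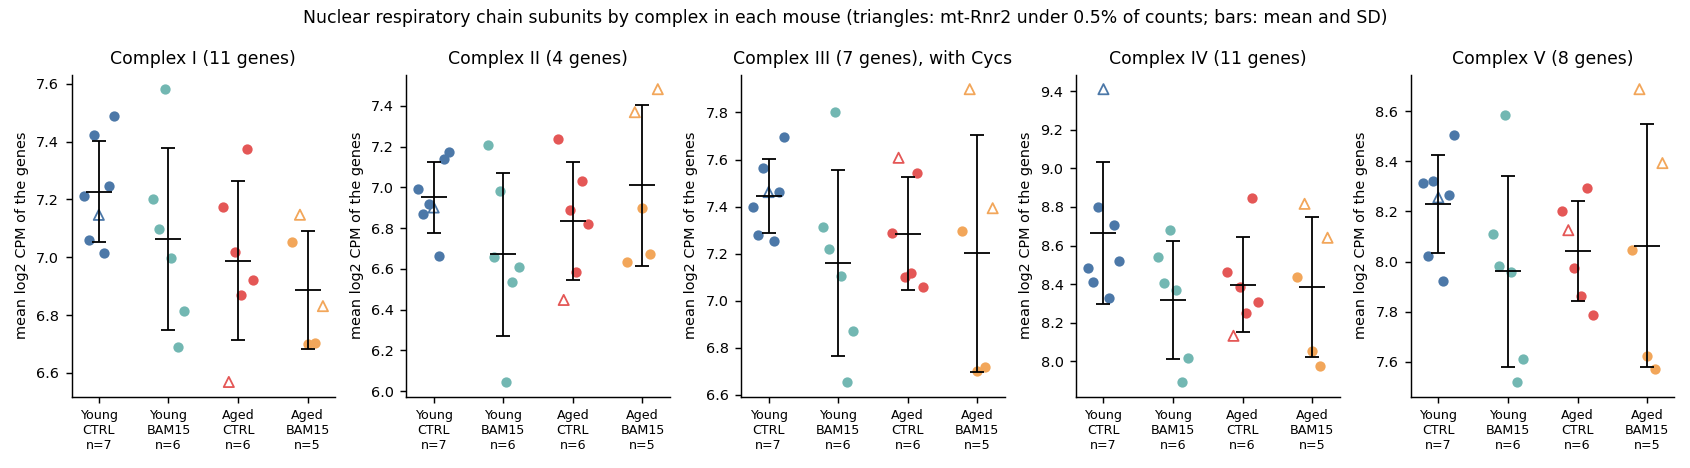
Mean log2 CPM of the subunits of each complex (vertical axis) in each of 24 mice, by group; bars are the mean and SD of the group, and open triangles are the 4 libraries with mt-Rnr2 under 0.5% of counts. The groups overlap in each complex, and the complex IV mean of 1 Young CTRL mouse (mouse 4) stands at 9.41, above the other 6, which reach 8.80.

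With age, the fitted level of most subunits was slightly lower, but no subunit passed the test. Between Aged CTRL and Young CTRL, 0 of 41 were called by edgeR's quasi-likelihood test (adjusted p under 0.05), against 0.207% of all genes, which are 33 of 15939. The log2 change was below 0 for 34 of 41, against 53.5% of all genes, and its median was -0.27 against -0.04 over all genes. By complex, the counts below 0 were 10 of 11 (complex I), 3 of 4 (II), 5 of 7 (III), 10 of 11 (IV) and 6 of 8 (V). At an unadjusted p under 0.05 there was 1, Atp5g3, on the lower side, against 8.43% of genes in either direction (4.56% higher and 3.86% lower); the lowest adjusted p of any subunit was 0.588. DESeq2 called 0 of 41 as well, against 0.711% of genes higher and 0.843% lower, and limma-voom with quality weights called 0, against 0.69% higher and 0.22% lower. The SE of a change had a median of 0.26 and ran from 0.19 to 0.64. Without the 4 libraries the median was -0.12 and 37 of 41 were below 0, with 0 called, against 0.362% of genes higher and 0.115% lower.

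BAM15 in aged mice gave no common direction over all 24 libraries. Here 0 of 41 subunits were called, against 0% of all genes, and 19 of 41 had a log2 change below 0 (48.3% of all genes), with a median of 0.00 beside 0.02 over all genes. At an unadjusted p under 0.05 there were 0 subunits, against 9.1% of genes (4.5% higher and 4.59% lower). The 2 Aged BAM15 libraries with low mt-Rnr2 are 2 of the 5 in the group, and without the 4 such libraries 38 of 41 changes were below 0, against 48.5% of all genes, with a median of -0.29. This moved 19 subunits from above 0 to below 0 and none the other way. Still 0 of 41 were called in those 20 libraries, against 0% of all genes, and 6 were lower at an unadjusted p under 0.05 (Ndufv1, Uqcrc1, Uqcrq, Cyc1, Cox7a2 and Atp5d), against 5.41% of genes lower. With 3 Aged BAM15 mice left, the median SE was 0.23. Cell type markers differed in the same 20 libraries: 6 of 6 macrophage markers were below 0 (median -0.72, 4 at an unadjusted p under 0.05), 7 of 8 adipocyte markers were below 0 (median -0.36) and 8 of 8 B cell markers were above 0 (median 3.08), with none called. The mean log2 CPM of the macrophage markers ran from 6.39 to 7.22 in 5 Aged CTRL mice and from 5.64 to 6.47 in 3 Aged BAM15 mice. Over all 24 libraries their sum was 666 to 1797 CPM in Aged CTRL and 467 to 1310 CPM in Aged BAM15, with no macrophage marker at 0. The part of these cell types in the subunit values was not tested.

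limma-voom with quality weights, which gives libraries that stand apart less weight, called 2 subunits lower in Aged BAM15 than in Aged CTRL. They were Uqcrq (log2 change -0.72, SE 0.21, limma adjusted p = 0.0353) and the cytochrome c1 gene Cyc1 (log2 change -0.66, SE 0.19, limma adjusted p = 0.0365), which is named here for this call and was picked after its values were seen, and the background was 3.44% of genes lower and 2.62% higher. DESeq2 called 0 of 41, against 0.453% of genes lower and 0.35% higher. These calls were therefore made by 1 of the 3 tools.

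BAM15 in young mice went with slightly lower fitted levels of most subunits, and again none was called by edgeR. The count was 0 of 41, against 0% of all genes; 37 of 41 log2 changes were below 0 (47.3% of all genes), and the median was -0.24 against 0.03 over all genes. All 11 subunits of complex IV and all 4 of complex II were below 0, with 9 of 11 in complex I, 6 of 7 in complex III and 7 of 8 in complex V. At an unadjusted p under 0.05, 4 were lower (Atp5g3, Atp5o, Cox7a2 and Uqcrq), which is 4 of 41 against 13.1% of genes in either direction (6.18% higher and 6.88% lower), and the lowest adjusted p was 0.330. limma-voom called 1, Atp5g3 (log2 change -0.56, SE 0.16, limma adjusted p = 0.0462), against 1.79% of genes lower and 2.16% higher, and DESeq2 called 0, against 1.03% lower and 0.218% higher. Without the 4 libraries, of which 1 is a Young CTRL mouse, 39 of 41 were below 0 with a median of -0.20 and 0 called, against 0% of genes.

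Levels of cell type markers also differed between libraries in the young comparison. Adipocyte transcripts had a log2 change below 0 for 7 of 8 markers (median -0.38), and their sum was 24292, 46869 and 75751 CPM in Young CTRL (lowest, median and highest) and 19676, 31014 and 52519 in Young BAM15. All 8 B cell markers were above 0 (median 2.36), with sums of 1.10, 3.65 and 313 CPM in Young CTRL and 2.00, 368 and 1078 in Young BAM15. Of these 8 markers, 5 were at 0 in at least 1 Young CTRL library and 2 in at least 1 Young BAM15 library. The 2 Young BAM15 mice with the lowest subunit sums, mice 5 and 6 (7848 and 8489 CPM), had the highest B cell sums of all 24 mice (1078 and 671 CPM). In Young BAM15 mice 1 to 4 the B cell sums were 2.00, 418, 318 and 240 CPM. Their subunit sums were 12358, 11117, 14287 and 10890 CPM in the same order, so the order of the 2 sums was not the same throughout. With the muscle and B cell marker levels as covariates, the median log2 change of the subunits was -0.13 and 29 of 41 were below 0, with 0 called, against 0.0439% of genes lower. Without the 4 libraries with muscle RNA it was -0.34 with 38 of 41 below 0. The part of adipocyte content in these values was not tested. In the aged comparison 5 of 8 adipocyte markers were below 0 (median -0.37), the sum running from 40631 to 71485 CPM in Aged CTRL and from 30041 to 84643 in Aged BAM15, and with age 2 of 8 were (median 0.11). Also with age, 7 of 7 brown and beige fat markers were below 0 (median -1.23), with Ucp1 at 0 in at least 1 library of both groups. For macrophage markers it was 0 of 6 (median 0.69). None of these markers was called, and the part of these cell types in the age values was not tested.

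The difference between the BAM15 effects at both ages was tested as an interaction. Of the 41 subunits 0 were called, against 0% of all genes, with 12 of 41 below 0 (52.5% of all genes) and a median of 0.33 on the log2 scale. At an unadjusted p under 0.05 there were 2, both higher: Atp5o (1.37, SE 0.51) and Cox7c (0.77, SE 0.36), against 5.08% of genes in either direction (3.22% higher and 1.85% lower), and the adjusted p was 0.899 for both. Without the 4 libraries 26 of 41 were below 0 and the median was -0.10. DESeq2 called 0 of 41, against 0.207% of genes higher and 0.0115% lower, and limma-voom 0, against 0% of genes. A difference between the ages in the response of these genes was therefore not detected, and its median direction turned with the 4 libraries.

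In CPM over all 24 libraries, no subunit had groups free of overlap in any of the 3 comparisons of 2 groups. Over all genes in these libraries, groups did not overlap for 0.333% higher and 0.157% lower with age. The shares were 0.42% and 0.289% for BAM15 in aged mice, and 0.54% and 0.646% for BAM15 in young mice. Without the 4 libraries with low mt-Rnr2, some subunits had groups free of overlap in aged mice. Uqcrc1, for example, was at most 142 CPM in 3 Aged BAM15 mice and at least 152 CPM in 5 Aged CTRL mice. The share of all genes in those 20 libraries was not computed, so this is not read as a result.

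**Figure D2:**
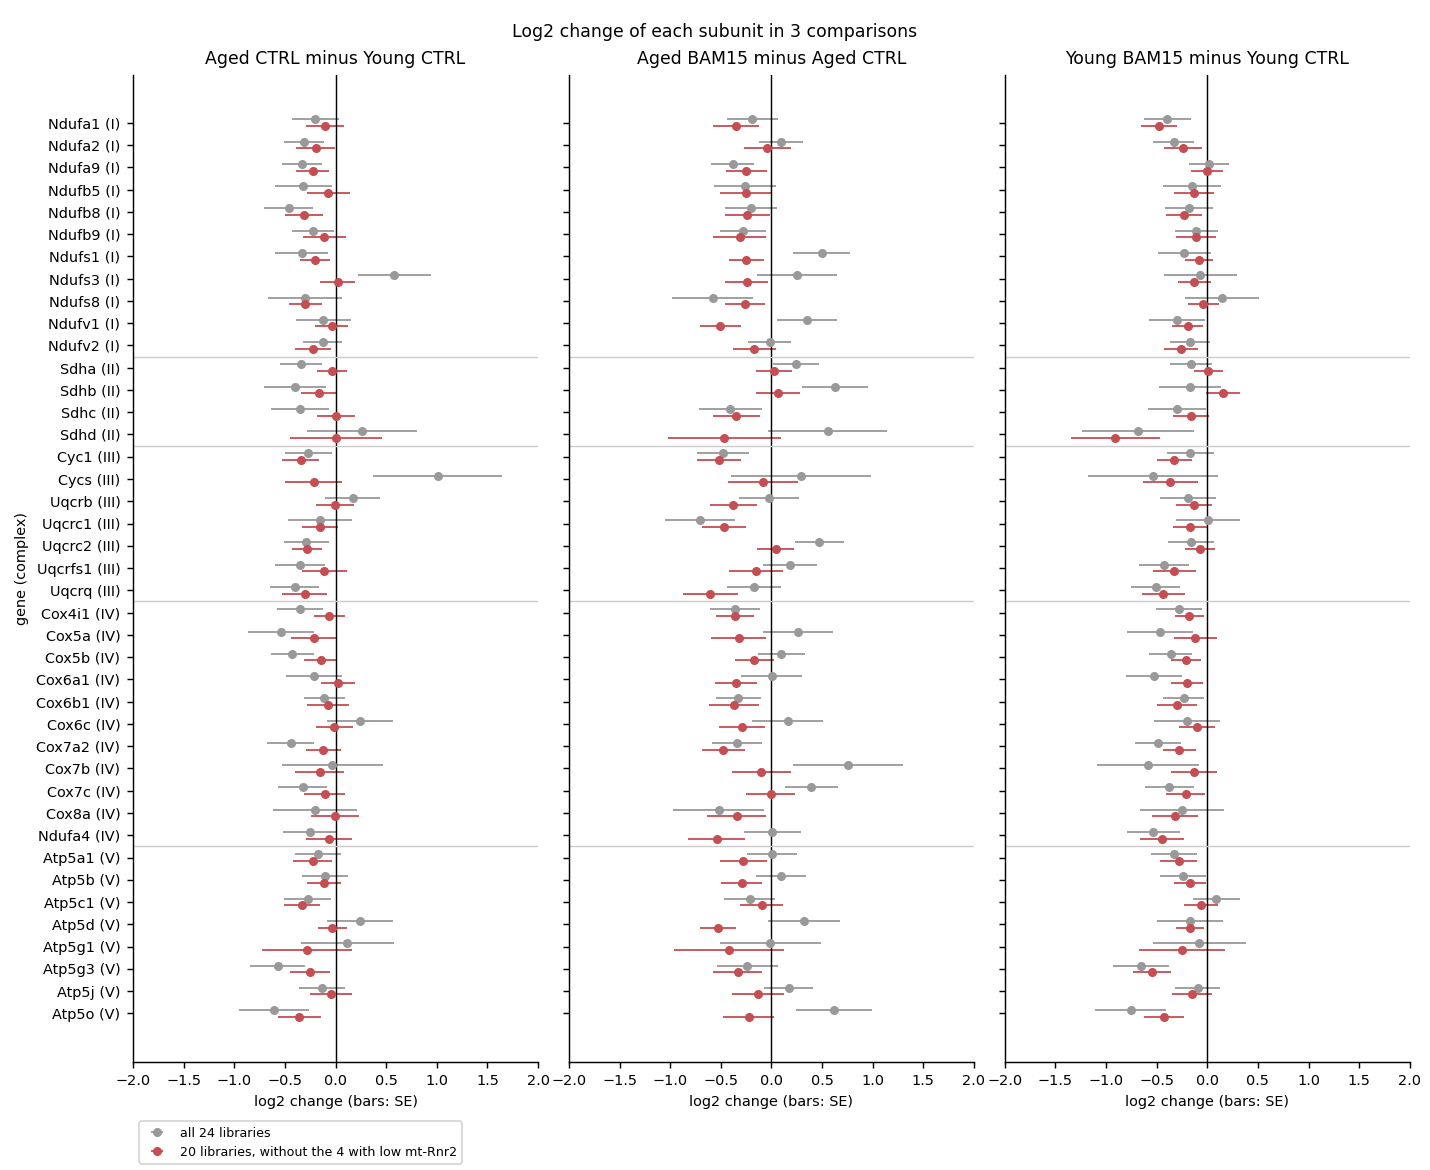
Log2 change of each of the 41 subunits (horizontal axis, bars are the SE) in 3 comparisons, with all 24 libraries (grey) and without the 4 with low mt-Rnr2 (red); grey lines part the complexes. In the middle panel 19 of 41 grey points and 38 of 41 red points lie below 0, and 0 subunits were called in any panel.

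In complex I, the entry point for electrons from NADH, Ndufa2 had the highest mean CPM of the 11 genes. This small subunit of the peripheral arm stood at 325, 388 and 643 CPM in Young CTRL (lowest, median and highest), 276, 371 and 409 in Young BAM15, 303, 319.6 and 543 in Aged CTRL, and 394, 448, 323, 328 and 420.1 CPM in Aged BAM15 mice 1 to 5. The highest of all was mouse 4 of Young CTRL, with Aged CTRL mouse 5 the highest of its group, and the groups overlapped. Its log2 changes were -0.31 (SE 0.20) with age, 0.09 (SE 0.21) for BAM15 in aged mice and -0.33 (SE 0.20) for BAM15 in young mice. Ndufb8 (chr19:44548572-44555440, minus strand on GRCm38), an accessory subunit of the membrane arm, had the smallest p for age in the complex. Ndufb8 was at 344, 449 and 506 CPM in Young CTRL (lowest, median and highest), 253, 379 and 522 in Young BAM15, 111, 326 and 436 in Aged CTRL, and 346, 199.6, 263, 278 and 256 CPM in Aged BAM15 mice 1 to 5. Aged CTRL mouse 2, a library with low mt-Rnr2, was the lowest of all, and the groups of each comparison overlapped. The age difference was -0.46 (SE 0.24, adjusted p = 0.630) by edgeR, and -0.31 (SE 0.19) without the 4 libraries.

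Ndufa9 (chr6:126821721-126849136, minus strand), an accessory subunit of the arm that carries electrons to coenzyme Q, had the smallest p for BAM15 in aged mice. Its level was 77.2, 80.5 and 93.7 CPM in Young CTRL (lowest, median and highest), 61.7, 83.3 and 118 in Young BAM15, 41.3, 65.1 and 97.2 in Aged CTRL, and 73.0, 40.3, 53.6, 54.6 and 33.5 CPM in Aged BAM15 mice 1 to 5. Young CTRL values were close together, and the 2 lowest mice of all, Aged BAM15 mice 2 and 5, have low mt-Rnr2. Against Aged CTRL, which overlapped with Aged BAM15, the log2 change was -0.38 (SE 0.22, adjusted p = 0.615) by edgeR and -0.25 (SE 0.20) without the 4 libraries. Ndufa1 (chrX:37187588-37191163, minus strand), a small accessory subunit of the membrane arm, had the smallest p for BAM15 in young mice. It was measured at 93.8, 134 and 149.6 CPM in Young CTRL (lowest, median and highest), 49.6, 98.1 and 132 in Young BAM15, 46.8, 122 and 143 in Aged CTRL, and 109, 80.3, 103, 80.9 and 117 CPM in Aged BAM15 mice 1 to 5. Young BAM15 mouse 4 was the lowest of its group, and the groups overlapped. The difference was -0.40 (SE 0.23, adjusted p = 0.471) by edgeR and -0.48 (SE 0.18) without the 4 libraries. Ndufs8, a core subunit that carries iron-sulfur clusters and was picked out after its values were seen, was at 18.8, 23.7, 23.4 and 8.65 CPM in the 4 libraries with low mt-Rnr2. In the other 20 it was never below 49.8 CPM.

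Complex II, succinate dehydrogenase, has 4 subunits, none of them read from mitochondrial DNA. Sdha (chr13:74322254-74350280, minus strand), the flavoprotein that oxidises succinate, was at 261, 307 and 574 CPM in Young CTRL (lowest, median and highest), 234, 308 and 368 in Young BAM15, 158, 265 and 341 in Aged CTRL, and 275, 388, 295, 293 and 298 CPM in Aged BAM15 mice 1 to 5. Mouse 4 of Young CTRL stood well above its group, and Aged BAM15 mouse 2 did so in its own; both have low mt-Rnr2. The log2 change with age was -0.34 (SE 0.21, adjusted p = 0.739) by edgeR, and -0.04 (SE 0.15) without the 4 libraries. For the iron-sulfur subunit Sdhb (chr4:140961203-140979193, plus strand), which passes the electrons on, the levels were 168, 209 and 589 CPM in Young CTRL (lowest, median and highest), 172, 234 and 312 in Young BAM15, 137, 194 and 271 in Aged CTRL, and 209, 527, 177, 189 and 424 CPM in Aged BAM15 mice 1 to 5. The 3 highest mice, Young CTRL 4 and Aged BAM15 2 and 5, all have low mt-Rnr2, and the groups overlapped. In aged mice the BAM15 difference was 0.63 (SE 0.33, adjusted p = 0.592) by edgeR over all libraries, and 0.06 (SE 0.21) without the 4.

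Sdhd (chr9:50596357-50603812, minus strand), a membrane anchor of complex II, had the lowest mean CPM of the 41 genes, at 1.67, 19.8 and 35.0 CPM in Young CTRL (lowest, median and highest), 1.72, 12.6 and 25.8 in Young BAM15, 15.3, 26.3 and 35.9 in Aged CTRL, and 9.86, 47.6, 26.6, 15.6 and 84.0 CPM in Aged BAM15 mice 1 to 5. Young CTRL mouse 4 and Young BAM15 mouse 4 were both low, and the values within a group spread widely. The young BAM15 difference was -0.68 (SE 0.55, adjusted p = 0.621) by edgeR and -0.91 (SE 0.44) without the 4 libraries.

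In complex III, which passes electrons from coenzyme Q to cytochrome c, Uqcrq (chr11:53427922-53430831, minus strand), a small subunit, had the highest mean CPM and the smallest p for age and for BAM15 in young mice. Uqcrq was at 426, 501 and 730.3 CPM in Young CTRL (lowest, median and highest), 234, 400.3 and 525 in Young BAM15, 346, 378 and 547 in Aged CTRL, and 386, 553, 199.8, 204 and 428 CPM in Aged BAM15 mice 1 to 5. Young BAM15 mice 5 and 6 and Aged BAM15 mice 3 and 4 were the lowest 4 of all, and the other mice overlapped. The log2 change was -0.51 (SE 0.24, adjusted p = 0.373) for BAM15 in young mice and -0.41 (SE 0.24) with age by edgeR. In aged mice it was -0.17 (SE 0.26) over all libraries and -0.60 (SE 0.27) without the 4, where the adjusted p was 0.415 by edgeR.

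Uqcrc1 (chr9:108936633-108949623, plus strand), a core protein of complex III, had the smallest p for BAM15 in aged mice. Its levels were 53.6, 177 and 291 CPM in Young CTRL (lowest, median and highest), 108, 174 and 245 in Young BAM15, 68.4, 170.0 and 188 in Aged CTRL, and 142, 68.2, 111, 119.8 and 35.0 CPM in Aged BAM15 mice 1 to 5. The 4 libraries with low mt-Rnr2 were the 4 lowest of all 24 for this gene. The 3 other Aged BAM15 mice lay at 111, 119.8 and 142 CPM. The 5 other Aged CTRL mice were at 152, 176 and 188 CPM (lowest, median and highest). How many of all genes had groups free of overlap in those 20 libraries was not computed. The difference was -0.70 (SE 0.35, adjusted p = 0.553) by edgeR over all libraries and -0.47 (SE 0.22) without the 4. Cycs, cytochrome c itself, was picked out after its values were seen, and stood at 43.3, 50.1 and 101 CPM in Young CTRL (lowest, median and highest), 24.3, 34.1 and 72.9 in Young BAM15, 25.1, 38.3 and 479 in Aged CTRL, and 63.9, 395, 31.2, 26.9 and 190.2 CPM in Aged BAM15 mice 1 to 5. Aged CTRL mouse 2 and Aged BAM15 mice 2 and 5, all with low mt-Rnr2, were far above the rest, and without those libraries the highest Aged CTRL value was 75.8 CPM. The fitted age difference went from 1.01 (SE 0.64) to -0.22 (SE 0.29) without them.

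**Figure D3:**
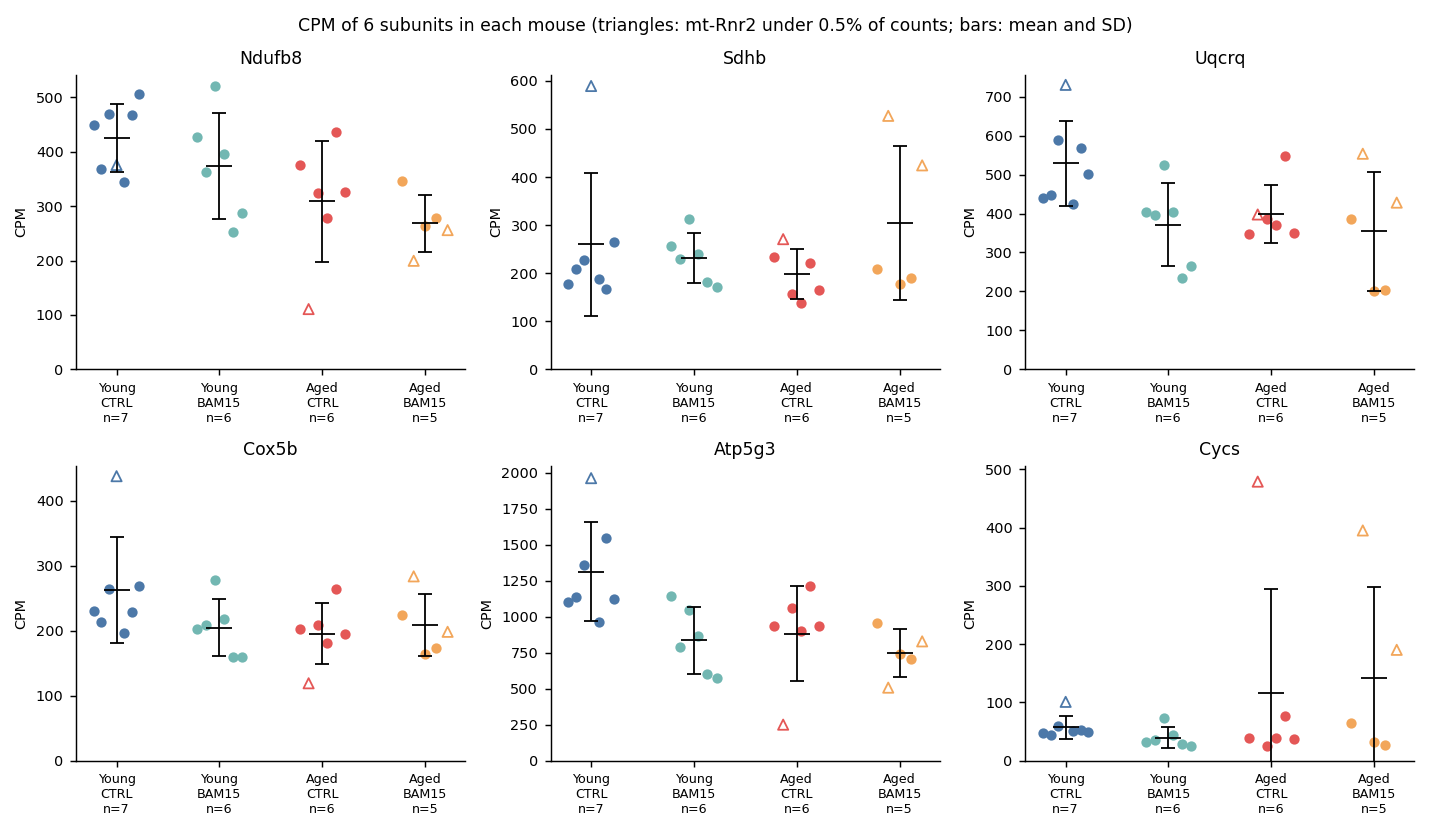
CPM (vertical axis, from 0) of 6 subunits in each of 24 mice by group; bars are the mean and SD, and open triangles are the 4 libraries with mt-Rnr2 under 0.5% of counts. For Cycs the highest value is 479 CPM in Aged CTRL mouse 2, and for Ndufb8 the same library is the lowest at 111 CPM.

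Complex IV, cytochrome c oxidase, reduces oxygen, and its nuclear subunits surround a core read from mitochondrial DNA. Cox6a1 (chr5:115345642-115348981, minus strand), the general form of a subunit that also has a muscle form, had the highest mean CPM of the 11 genes. It was at 505, 655 and 1911 CPM in Young CTRL (lowest, median and highest), 446, 579 and 702 in Young BAM15, 587, 693 and 1003 in Aged CTRL, and 569.6, 1124, 536, 478 and 935 CPM in Aged BAM15 mice 1 to 5. The highest value in Young CTRL, Aged CTRL and Aged BAM15 was in each case a library with low mt-Rnr2. The log2 change with age was -0.21 (SE 0.28), and 0.02 (SE 0.17) without the 4 libraries; for BAM15 in young mice it was -0.53 (SE 0.28) and -0.20 (SE 0.16). Cox5b (chr1:36691449-36693681, plus strand), a zinc-binding subunit, had the smallest p for age, with values of 196, 229.7 and 437 CPM in Young CTRL (lowest, median and highest), 159, 205 and 278 in Young BAM15, 119, 198 and 264 in Aged CTRL, and 224, 283, 164, 173 and 198 CPM in Aged BAM15 mice 1 to 5. High was mouse 4 of Young CTRL, and low was mouse 2 of Aged CTRL. The age difference was -0.43 (SE 0.21, adjusted p = 0.601) by edgeR, and -0.15 (SE 0.16) without the 4 libraries.

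Cox7c (chr13:86044816-86046904, minus strand), a small membrane subunit, had the smallest p for BAM15 in aged mice. Levels of Cox7c were 271, 363 and 664 CPM in Young CTRL (lowest, median and highest), 218, 267 and 413 in Young BAM15, 248, 268 and 472 in Aged CTRL, and 356, 481, 290.4, 299 and 609 CPM in Aged BAM15 mice 1 to 5. The 2 highest Aged BAM15 mice have low mt-Rnr2, and the difference was 0.39 (SE 0.26, adjusted p = 0.684) by edgeR over all libraries and -0.01 (SE 0.24) without the 4. Cox7a2 (chr9:79755361-79759878, minus strand), the general form of another paired subunit, had the smallest p for BAM15 in young mice. The levels of Cox7a2 were 365, 431 and 977 CPM in Young CTRL (lowest, median and highest), 249, 399 and 428 in Young BAM15, 259, 379.7 and 488 in Aged CTRL, and 365, 391, 257, 252 and 235 CPM in Aged BAM15 mice 1 to 5. Far above its group was Young CTRL mouse 4, and Young BAM15 mouse 5 was the lowest of its own. The young difference was -0.49 (SE 0.23, adjusted p = 0.366) by edgeR and -0.28 (SE 0.17) without the 4 libraries; in aged mice it was -0.34 (SE 0.25) and -0.48 (SE 0.21).

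In complex V, the ATP synthase, Atp5g3 (chr2:73908447-73911326, minus strand) encodes the c subunit of the rotating ring and had the highest mean CPM of the 8 genes. It was at 964, 1138 and 1962 CPM in Young CTRL (lowest, median and highest), 572, 828 and 1143 in Young BAM15, 249.8, 934 and 1216 in Aged CTRL, and 956, 507, 741, 706 and 828 CPM in Aged BAM15 mice 1 to 5. Young CTRL mouse 4 was the highest and Aged CTRL mouse 2 the lowest of all. In young mice 4 of 6 BAM15 mice lay below the lowest Young CTRL mouse, and the groups of each comparison overlapped. For BAM15 in young mice the log2 change was -0.65 (SE 0.28, adjusted p = 0.330) by edgeR, and -0.55 (SE 0.19) without the 4 libraries, where the adjusted p was 0.146 by edgeR. With age it was -0.57 (SE 0.28, adjusted p = 0.588) by edgeR, and -0.25 (SE 0.20) without them.

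Atp5o (chr16:91925214-91931687, minus strand), the subunit at the top of the peripheral stalk known as OSCP, had the smallest p of complex V for BAM15 in aged mice. Its values were 308, 432 and 1175 CPM in Young CTRL (lowest, median and highest), 209, 309.9 and 452 in Young BAM15, 255, 301 and 458 in Aged CTRL, and 342, 847, 236, 233 and 937 CPM in Aged BAM15 mice 1 to 5. Young CTRL mouse 4 and Aged BAM15 mice 2 and 5, all with low mt-Rnr2, were the 3 highest of all. In aged mice the difference was 0.62 (SE 0.38, adjusted p = 0.651) by edgeR over all libraries and turned to -0.22 (SE 0.25) without the 4. For BAM15 in young mice it was -0.76 (SE 0.35, adjusted p = 0.361) by edgeR, and -0.43 (SE 0.20) without the 4.

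The 4 libraries with low mt-Rnr2 did not shift the subunits evenly. Against the median of the other libraries of their own group, 12 of 41 subunits were higher by more than 1 on the log2 scale in the median of the 4, against 15% of all genes, and 3 of 41 were lower by more than 1, against 27.1% of all genes. In all 4 libraries 17 of 41 subunits were higher and 5 lower, against 3484 and 4549 of all 15939 genes. The genes named here were picked after these values were seen. Cycs differed by 1.03, 3.65, 3.66 and 2.60 in mouse 4 of Young CTRL, mouse 2 of Aged CTRL and mice 2 and 5 of Aged BAM15. Cox7b, a small subunit of complex IV, differed by 2.02, 2.35, 2.98 and 2.36 in the same order. On the other side stood Ndufs8, with -2.10, -1.31, -1.26 and -2.68, Uqcrc1, with -1.73, -1.36, -0.81 and -1.77, and Cox8a of complex IV, with -0.27, -3.74, -2.01 and -1.02. Subunits of 1 complex thus differed in direction within the same library, and the plot of deviations from each gene's median shows it for every complex.

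**Figure D4:**
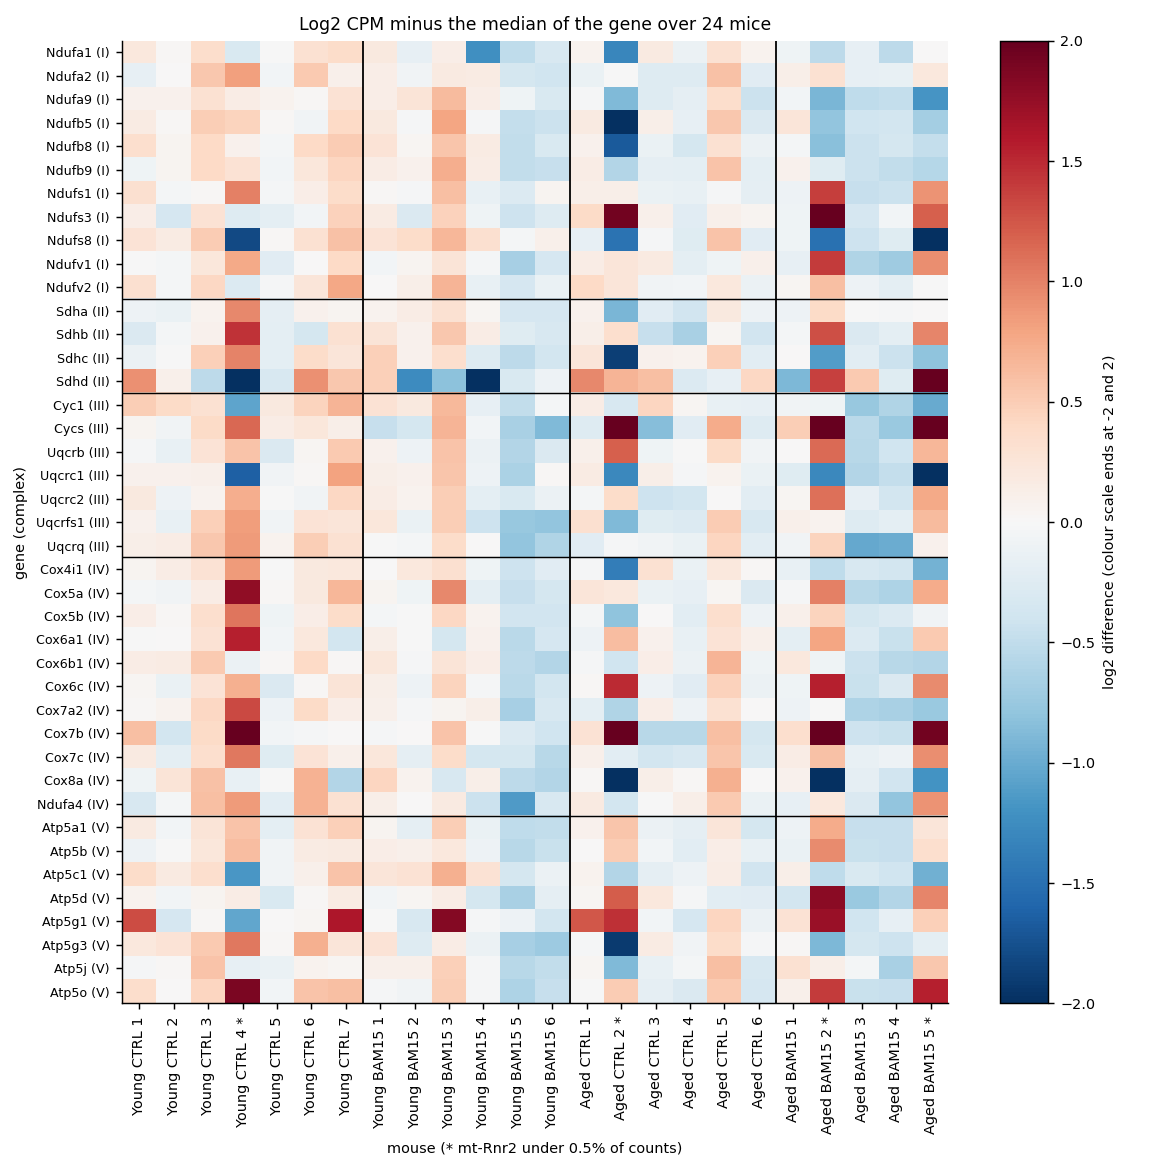
Log2 CPM of each of the 41 subunits (rows, by complex) in each of 24 mice (columns, by group) minus the median of the gene over all mice; red is higher, blue is lower, and colours end at -2 and 2. The 4 columns with a star, mt-Rnr2 under 0.5% of counts, hold both red and blue cells; 41 of 41 cells are below 0 in Young BAM15 5 and 38 of 41 in Young BAM15 6.

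Among the other 20 libraries the subunits varied together, and with less spread than the median gene. The subunits and all genes were not matched for level, so whether the small spread is particular to the subunits was not tested. The SD within groups had a median of 0.29 on the log2 scale over the 41 genes, against 0.49 over all genes kept, and 19.2% of all genes were below the subunits' median; over all 24 libraries the medians were 0.46 and 0.69. As a description, after the group means were taken out, the 820 pairs of subunits had a median Pearson r of 0.70 over the 20 libraries, with 95.4% of pairs above 0. The median was 0.71 within a complex and 0.69 between complexes, and all points share the libraries and their depth. Pairs of other genes were not computed, so whether such values are particular to these subunits was not tested. Over all 24 libraries the median r was 0.37. Each subunit was also set against the mean of the other 40: r was above 0.5 for 38 of 41 over the 20 libraries, from 0.96 for Atp5a1, the alpha subunit of the ATP synthase, to -0.11 for Sdhd. The other low values were 0.31 for Cox6a1 and 0.36 for Cox8a.

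Muscle forms of 3 complex IV subunits, Cox6a2, Cox7a1 and Cox8b, had their 2 highest values in Young BAM15 3 and Young CTRL 7, both with muscle RNA. Cox7a1 and Cox8b also serve as markers of brown and beige fat. Cox6a2 was at 553, 793, 302 and 139 CPM in Young CTRL 7, Young BAM15 3, Aged CTRL 1 and Aged BAM15 1, the libraries with muscle RNA, and at 102 CPM in Aged CTRL 5. Elsewhere it did not exceed 21.5 CPM. Cox7a1 was at 185, 224, 61.9 and 31.3 CPM and Cox8b at 213, 296, 83.1 and 47.7 CPM in the same 4 libraries. The values of Aged BAM15 1 were exceeded elsewhere, as by Cox7a1 at 40.4 CPM in Aged CTRL 2 and Cox8b at 54.7 CPM in Young BAM15 6. In Aged BAM15 2, Cox7a1 stood at 149 CPM and Cox8b at 115 CPM, with a muscle marker sum of 8746 CPM and 43.4 CPM of Ckm. Cox8b stood at 140 CPM in Young CTRL 4, with a muscle marker sum of 1030.4 CPM and 6.20 CPM of Ckm. Both libraries have low mt-Rnr2. The lung form Cox4i2 stayed between 0.521 and 6.34 CPM in all 24 mice. Atp5g2, another gene for the c subunit, was at 5.00, 11.9, 21.4 and 10.7 CPM in mouse 4 of Young CTRL, mouse 2 of Aged CTRL and mice 2 and 5 of Aged BAM15, and at most 2.93 CPM in the other 20. The general forms Cox6a1, Cox7a2 and Cox8a were at 508, 410.1 and 391 CPM in Young BAM15 3, the library with the most Ckm. In Young CTRL 7 they were at 505, 431 and 328 CPM, where Cox6a1 and Cox8a were the lowest of the Young CTRL mice and Cox7a2 was the median.

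**Figure D5:**
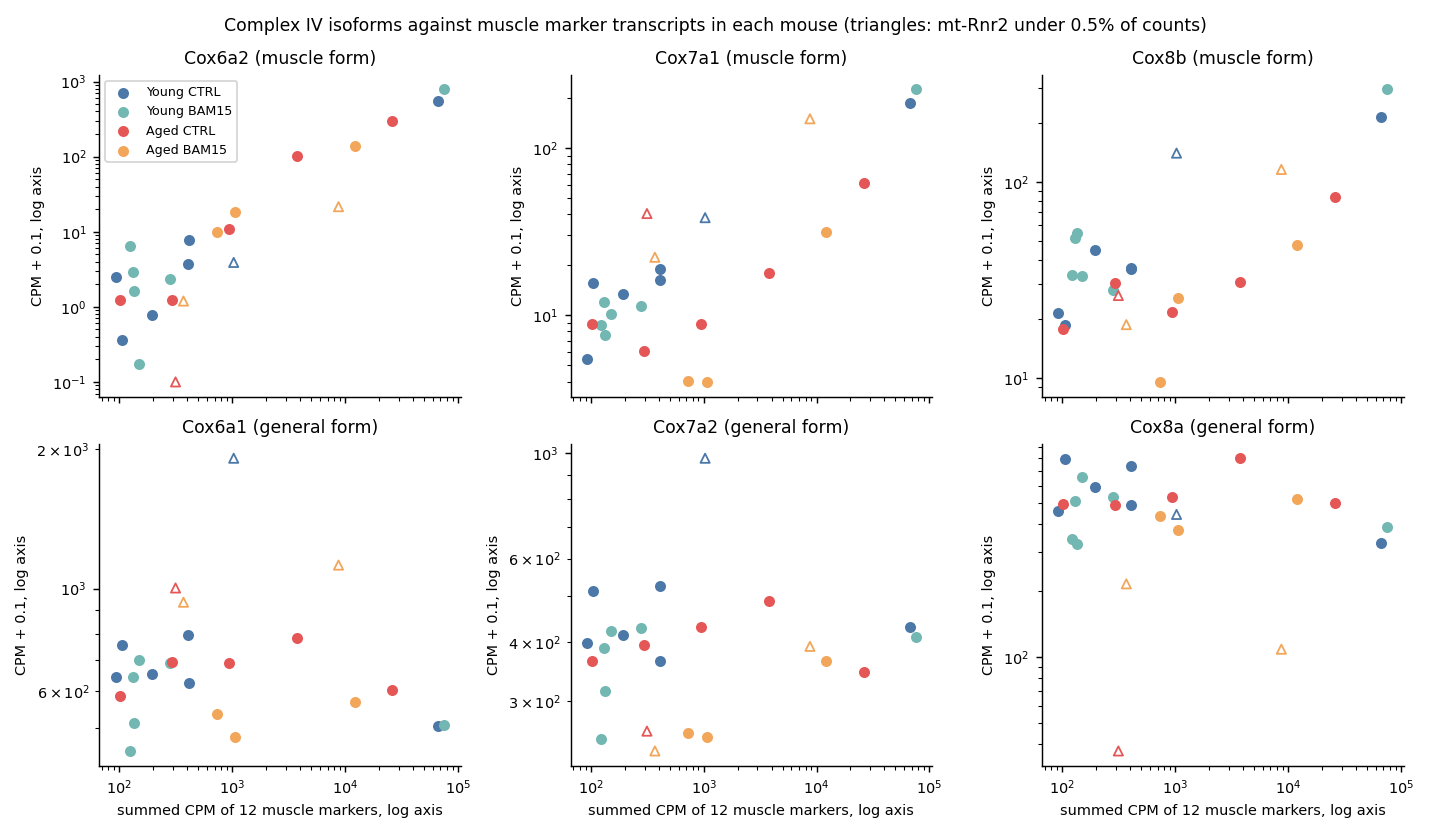
CPM plus 0.1 (vertical log axis) of 3 muscle forms of complex IV subunits (top) and their general forms (bottom) against the summed CPM of 12 skeletal muscle markers (horizontal log axis) in each of 24 mice; colours are groups and open triangles the 4 libraries with mt-Rnr2 under 0.5% of counts. Cox6a2 climbs to 793 CPM in the library with the highest muscle sum, while Cox6a1 in the same library is at 508 CPM, inside the 446 to 702 CPM of its group. In Young CTRL 7, another library with muscle RNA, Cox6a1 is at 505 CPM, the lowest of its group.

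The remaining genes of the pathway were counted on lists written from textbook knowledge, and 0 genes of any list were called in any of the 4 comparisons by edgeR. Of 25 other complex I subunits, 21 had a log2 change below 0 with age (median -0.23), 13 for BAM15 in aged mice (median -0.12) and 22 for BAM15 in young mice (median -0.21). Without the 4 libraries the counts were 24, 19 and 23 of 25 (medians -0.17, -0.21 and -0.17). The smallest p in young mice was that of Ndufb6, a membrane arm subunit, at -0.72 (SE 0.26, adjusted p = 0.271) by edgeR. Of 10 other ATP synthase subunits, 7, 5 and 10 were below 0 in those comparisons (medians -0.21, 0.02 and -0.27), and 7, 8 and 8 without the 4 libraries (medians -0.22, -0.31 and -0.22). The 3 other complex III subunits were below 0 with age and in young mice in 3 of 3 cases, and in 2 of 3 for BAM15 in aged mice (3 of 3 in all 3 comparisons without the 4 libraries). The 6 other complex IV genes, mostly tissue forms, were below 0 in 3, 2 and 1 cases, and in 5, 4 and 0 without the 4 libraries.

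Assembly factors, the chaperones that build the complexes, were measured for 50 genes. For BAM15 in young mice 42 of 50 were below 0 with a median of -0.30, and 32 of 50 with -0.16 without the 4 libraries. With age 24 of 50 were below 0 (median 0.00), and for BAM15 in aged mice 18 of 50 (median 0.14). Without the 4 libraries these became 37 of 50 (median -0.09) and 32 of 50 (median -0.10). The smallest p values belonged to Cmc2 with age, at -0.61 (SE 0.22, adjusted p = 0.330), to Cox19 in aged BAM15 mice, at -0.60 (SE 0.22, adjusted p = 0.403), and to Higd2a in young BAM15 mice, at -0.52 (SE 0.20, adjusted p = 0.282), all by edgeR.

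Subunits read from mitochondrial DNA were analysed here for 8 genes. In young mice 8 of 8 had a log2 change below 0 for BAM15 (median -0.39), and 7 of 8 without the 4 libraries (median -0.33). For BAM15 in aged mice 3 of 8 were below 0 (median 0.23), and 6 of 8 without the 4 libraries (median -0.18). With age it was 5 of 8 (median -0.03), and 7 of 8 without the 4 libraries (median -0.18). Of these 3 comparisons over all libraries, the smallest p was that of mt-Nd4, a complex I subunit, in aged BAM15 mice. Its log2 change was 1.37 (SE 0.63, adjusted p = 0.525) by edgeR. For the interaction the smallest p was that of mt-Cytb, at 1.63 (SE 0.74, adjusted p = 0.899) by edgeR. Without the 4 libraries 0 of 8 had an unadjusted p under 0.05 by edgeR for BAM15 in aged mice.

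Regulators of the chain were on a list of 11 genes. Pprc1, a relative of PGC-1alpha, had the smallest p with age, at 1.81 (SE 0.70, adjusted p = 0.402), and Ppargc1a the smallest for BAM15 in aged mice, at 0.94 (SE 0.44, adjusted p = 0.532), both by edgeR. In young BAM15 mice it was Nrf1, whose motif letters are among those marked in the promoters, at 0.73 (SE 0.42, adjusted p = 0.462) by edgeR. The counts below 0 were 8, 5 and 3 of 11 for age, BAM15 in aged mice and BAM15 in young mice, and 8, 5 and 4 without the 4 libraries.

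Of the 41 subunits, 8 have at least 1 other gene whose sequence matches 100 bases or more of their last 300 at 95% identity or more, and for 5 of these (Ndufs3, Uqcrb, Cox6c, Cox7c and Atp5o) such a copy is in the count table, so tags could be split. Of the 41, 16 share exon bases with another annotated gene on GRCm38, Ndufb8 among them, and whether tags were counted by strand is not given in the sources used here. On simulated counts for the age comparison, over 15567 genes, the test recovered 28% of 50 genes given a log2 change of -1. It recovered 18% of 50 given 1 and 84% of 50 given -2. Changes smaller than 1 in size, such as the medians given here, were not simulated.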

How the data were processed

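RNA from the inguinal fat of 24 mice was sequenced as 3' tag libraries, 1 per mouse, each with its own animal number in the labels. The deposited count table holds the authors' raw tag counts per gene, and a second deposited table holds signal, which is counts divided by size factors. Per the submitters' processing notes, R 3.4.3, DESeq2 1.18.1 and GRCm38 were used, in roles the notes do not give. Aligner, counter and annotation: not given in the sources used here. Counts recomputed from the signal differed from the deposited counts by at most 6.52e-09.

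Groups came from the labels. The 41 genes were found by symbol in the signal table and tested on the same Ensembl identifiers in the counts. The genes and lists were chosen with earlier results of these data known. Genes named with full values were, for each complex, the one with the highest mean CPM and the one with the smallest p in each comparison. The rule also names the gene with the smallest p on each list and the isoforms Cox6a2, Cox7a1, Cox8b, Cox4i2 and Atp5g2. Other subunits given with values of their own were picked after their values were seen.

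Genes were kept by filterByExpr (15939 of 17541), scaled by TMM and fitted over all 24 libraries with edgeR 4.0.16 (quasi-likelihood, robust, group term, R 4.3.3). P-values were adjusted by Benjamini-Hochberg over all genes kept. The SE is the size of the log2 change divided by the root of F. Log2 CPM used a prior count of 2. Alternatives were DESeq2 1.42.0, limma 3.58.1 (voom with quality weights), no filter, other size factors, only the compared groups, a replicate block, marker covariates and leaving out each library. Leaving out libraries with low mt-Rnr2, muscle RNA or skin RNA was added after seeing the data. The test was tried on simulated counts, where 84% of 50 genes with a log2 change of 2 were recovered in the age comparison over 15567 genes, with 5 false calls. Depth was 8624158 to 21865353 counts per library.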

Additional observations from a re-analysis of the deposited data

Results flagged for a closer look

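For the 15 subunits named by rule, levels within groups of mice were searched for a single mouse far from the rest of its group, and 15 of 60 such sets of a subunit and a group held one. The means of each complex and of all 41 subunits gave 0 of 24. Chance alone gives about 1 in 20 groups if the sets are independent. These sets are not, since the subunits share the same libraries. Values are log2 CPM. Young CTRL mouse 4, a library with low mt-Rnr2, stood above its group for Sdha (9.17), Sdhb (9.20), Cox6a1 (10.9), Cox5b (8.77), Cox7a2 (9.93) and Atp5o (10.2), and below it for Sdhd (0.858) and Uqcrc1 (5.75). Aged CTRL mouse 2, another such library, stood below its group for Ndufb8 (6.79), Ndufa1 (5.55), Uqcrc1 (6.10) and Atp5g3 (7.97). Aged BAM15 mouse 2, also with low mt-Rnr2, stood above its group for Sdha (8.60). Aged CTRL mouse 5, which does not have low mt-Rnr2, stood above its group for Ndufa2 (9.08) and Uqcrq (9.10).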

How the results depend on the processing

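No subunit was called by edgeR under any alternative run, and only limma-voom called any: 2 for BAM15 in aged mice and 1 for BAM15 in young mice, with log2 changes of -0.72 for Uqcrq and -0.56 for Atp5g3. The number of all genes called moved widely. For age it was 33, and became 271 with DESeq2, 145 with limma-voom, 18 with the compared groups only, 52 with marker covariates, 79 without the low mt-Rnr2 libraries, 6 without those with muscle RNA and 4 without those with skin RNA. For BAM15 in aged mice it was 0, and became 140 with DESeq2, 966 with limma-voom and 95 without the muscle RNA libraries. In young mice it was 0, and became 218 with DESeq2, 631 with limma-voom and 7 with covariates. For the interaction DESeq2 called 38, and a fit of only the compared groups does not exist, since it uses all 4. The cause of these differences was not tested.

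The median log2 change of the subunits for BAM15 in aged mice became -0.27 with limma-voom and -0.29 without the low mt-Rnr2 libraries, and that of the interaction -0.13 and -0.10. Signs turned for some genes. For BAM15 in aged mice Atp5o was at -0.15 with limma-voom and -0.22 without the low mt-Rnr2 libraries, Cox7c at -0.0088 and Ndufa2 at -0.0397 without them, and Cox6a1 at -0.0040 with DESeq2 size factors, -0.0042 with the DESeq2 test, -0.29 with limma-voom and -0.35 without them. With age Cox6a1 was at 0.0205 without them. In young mice Sdha was at 0.0655 with limma-voom, 0.0144 with covariates and 0.0116 without them.

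Leaving out 1 mouse at a time called 20 to 35 genes for age, 0 to 67 for BAM15 in aged mice (67 without Aged BAM15 mouse 1) and 0 to 1 in young mice, with 0 subunits called each time. The medians ran from -0.34 to -0.18, from -0.20 to 0.13 and from -0.36 to -0.17, and from 0.09 to 0.47 for the interaction. Cox6a1 ran from -0.21 to 0.12 for BAM15 in aged mice and from -0.32 to 0.13 with age, and Sdha from -0.23 to 0.0302 in young mice.

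Replicate numbers only name the mice: same-numbered mice of different groups had a median correlation of -0.044 over 33 pairs, against 0.004 over 182 other pairs. With the number as a replicate block, 5 genes were called for age and 0 subunits in any comparison, the medians were -0.26, -0.04, -0.27 and 0.28 for age, aged BAM15, young BAM15 and the interaction, and Cox6a1 in aged mice was at -0.0386.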
